A study of Mus musculus with 15 samples.

Results

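Kinesins are the motor proteins that walk along microtubules, the tubulin filaments of the cell, and their genes were followed through 2 kinds of block of energy metabolism in mouse embryonic stem cells. The members were all protein-coding genes of the deposited expression table whose symbol is Kif followed by a digit or the letter c, or is Klc1, Klc2, Klc3 or Klc4 for the kinesin light chains. They numbered 46 of 32152 genes and lay on 16 chromosomes. Of these, 39 reached a mean of at least 1 FPKM (fragments per kilobase of transcript scaled to sequencing depth, the unit of the deposited values) in at least 1 group. The other 7 (Kif6, Kif9, Kif12, Kif17, Kif19a, Kif27 and Kif28) did not, with a highest group mean of 0.628 FPKM, and are only counted. Another 3 gene names of the same form were not protein coding and were left out.

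The study compared C57BL/6 stem cells in 5 groups of 3 samples by RNA sequencing. One group was mock treated and served as control. The others received oligomycin for 48 hours, at 1 nM or at 10 nM, or 2-DG (2-deoxy-D-glucose) for the same time, at 5 mM or at 10 mM. Oligomycin blocks the mitochondrial ATP synthase, and the labels call its doses low and high inhibition of oxidative phosphorylation. 2-DG is a glucose analog that blocks glycolysis, and its doses are called low and high inhibition of glycolysis. All groups shared a medium that held serum and leukemia inhibitory factor, without mention of feeder cells. How long the mock samples were kept is not stated. Whether replicates came from separate cultures is not stated either, so p-values measure the spread between these samples only.

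A kinesin motor domain turns ATP hydrolysis into steps along a microtubule, and the tail of the protein decides what is carried or moved. One branch of the family works in cell division, where motors push the spindle poles apart, shorten microtubule ends, move chromosomes and build the midzone at which the daughter cells separate. The other branch carries vesicles, organelles and RNA through the cytoplasm, and its classical motor, kinesin-1, is made of heavy chains (Kif5a, Kif5b, Kif5c) and cargo-binding light chains (Klc1 to Klc4). Genes of the mitotic branch are transcribed mostly late in the cell cycle, and embryonic stem cells in culture divide fast.

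Stem cell markers were expressed in every group and fell with oligomycin. All 10 stem cell markers of the list were called lower at both oligomycin doses, and their summed level was 1973 to 2166 FPKM in the controls, 1142 to 1240 with 1 nM and 455 to 597 with 10 nM, against 1691 to 1773 with 5 mM 2-DG and 1530 to 1561 with 10 mM. Fibroblast markers stood at 2783 to 2941 FPKM in the controls, 6310 to 6583 with 1 nM oligomycin and 8562 to 9430 with 10 nM, and at 2627 to 2838 and 3035 to 3242 with the 2-DG doses. Of the 18 fibroblast markers tested, 16 were called higher at 1 nM and 17 at 10 nM. Macrophage markers summed to 119 to 132 FPKM in the controls, 129.8 to 177 and 163 to 173.5 with the oligomycin doses, and 63.6 to 65.5 and 57.5 to 60.4 with the 2-DG doses. Of the 8 macrophage markers tested, 4 and 5 were called higher and 0 lower with oligomycin, and 5 and 4 lower and 0 higher with 2-DG. Itgam and Ptprc were under 1 FPKM in every group. Over all tested genes, 29.8% and 34% were called higher and 33.2% and 41.7% lower with the oligomycin doses. With the 2-DG doses, 15% and 21.4% of all tested genes were called higher and 20.3% and 26.8% lower. Depth was 17.4 to 19.2 M reads (M, mega) per sample. The library of 10 nM oligomycin that lay farthest from its own group was replicate 1 (root mean square deviation 0.181 on the log2 scale, 0.106 to 0.145 in the other samples). Its deviations rose with transcript length (Spearman correlation 0.52). Other libraries also had such trends, with 0.36 and -0.35 in control replicates 1 and 3 and -0.31 in replicate 1 of 1 nM oligomycin. Replicates 2 and 3 of 10 nM oligomycin had -0.46 and -0.38.

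In the controls the mitotic kinesins made up most of the family's message. The 10 spindle and 4 cytokinesis genes together gave 313, 316 and 323 FPKM, which was 63.8% to 64.8% of the summed FPKM of all 46 genes. The most abundant member was Kif11 at 49.1 ± 3.48 FPKM (SD, n = 3), ahead of Kif20a at 43.95 ± 0.301, Kifc1 at 40.9 ± 2.46, the transport motor Kif5b at 39.9 ± 4.87 and Kif22 at 29.6 ± 1.54. The lowest control of Kif11, 45.4 FPKM, was just above the highest of Kif5b, 45.0 FPKM. The controls of Kif5b overlapped those of Kif20a and of Kifc1, so its place beside either is within the spread, while all controls of Kif20a lay above those of Kifc1. At the low end, Kif26b and Kif26a stood at 1.07 ± 0.0425 and 1.71 ± 0.0566 FPKM.

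With oligomycin the mitotic sum was lower at each dose, while the sum of transport and light chain genes was higher with either inhibitor. The mitotic sum was 218, 219 and 221 FPKM with 1 nM and 156, 156 and 164 with 10 nM, 69.1% and 50.02% of the control mean. The 17 transport and 4 light chain genes gave 155, 164 and 168 FPKM in the controls, 195, 198 and 200 with 1 nM and 205, 209 and 233 with 10 nM. No oligomycin sample overlapped the controls in either sum. Within the transport and light chain sum, Kif1c, Klc1 and Kif1a went from 18.4, 16.6 and 7.08 FPKM in the controls to 38.1, 35.6 and 16.4 with 10 nM. The median log2 change of the set there was 0.10, with 8 of 20 tested genes called higher and 5 lower (34% and 41.7% of all genes). With 2-DG the transport and light chain genes gave 171, 180 and 181 FPKM at 5 mM and 183, 183 and 191 at 10 mM, also above all controls. Kif5b, called in no comparison with control, went from 39.9 FPKM to 45.6 and 47.1 with these doses. The transport genes alone stood at 116% of their control mean with 10 mM 2-DG, beside 118% with 1 nM oligomycin. The mitotic share of the family's FPKM went from 64.1% to 50.8% and 40.8%. With 2-DG the mitotic share was 62.0% at 5 mM and 59.4% at 10 mM, with a mitotic sum of 304 to 329 FPKM at 5 mM, which overlapped the controls, and of 291 to 299 at 10 mM, which lay below them. These are bulk samples, in which fewer cells of a kind and less RNA per cell cannot be told apart.

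**Figure D1:**
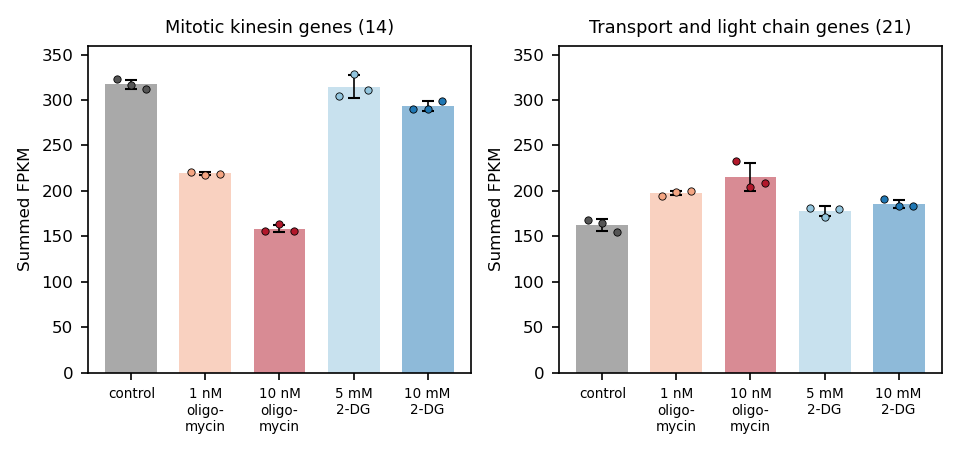
Summed FPKM of the 14 mitotic kinesin genes (left) and of the 21 transport and light chain genes (right) in the 5 groups. Bars are group means, error bars standard deviations over 3 samples, and points single samples; the mitotic sum with 10 nM oligomycin is 50.02% of the control mean, and the other sum is 133% of it.

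Changes were tested across all 13284 genes that reached 1 FPKM in 3 or more samples, as log2(FPKM + 1) in limma, and a gene is called higher or lower at a Benjamini-Hochberg adjusted p under 0.05. All 39 described kinesin genes were among those tested. With 1 nM oligomycin, 10 kinesin genes were called higher and 15 lower, where 29.8% and 33.2% of all tested genes were called higher and lower. With 10 nM, 10 were called higher and 20 lower, against 34% and 41.7% of all genes, so that the shares of the whole family were close to the background. By role the family was split. Of the 14 mitotic genes, 0 were called higher and 12 lower at 1 nM, with a median log2 change of -0.48 (-0.03 over all tested genes), and 0 higher and 13 lower at 10 nM, with a median of -0.995 (-0.08 over all genes). Of the 20 transport and light chain genes tested, 9 were called higher and 1 lower at 1 nM, and 8 higher and 5 lower at 10 nM. All comparisons with control share the same 3 control samples.

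**Figure D2:**
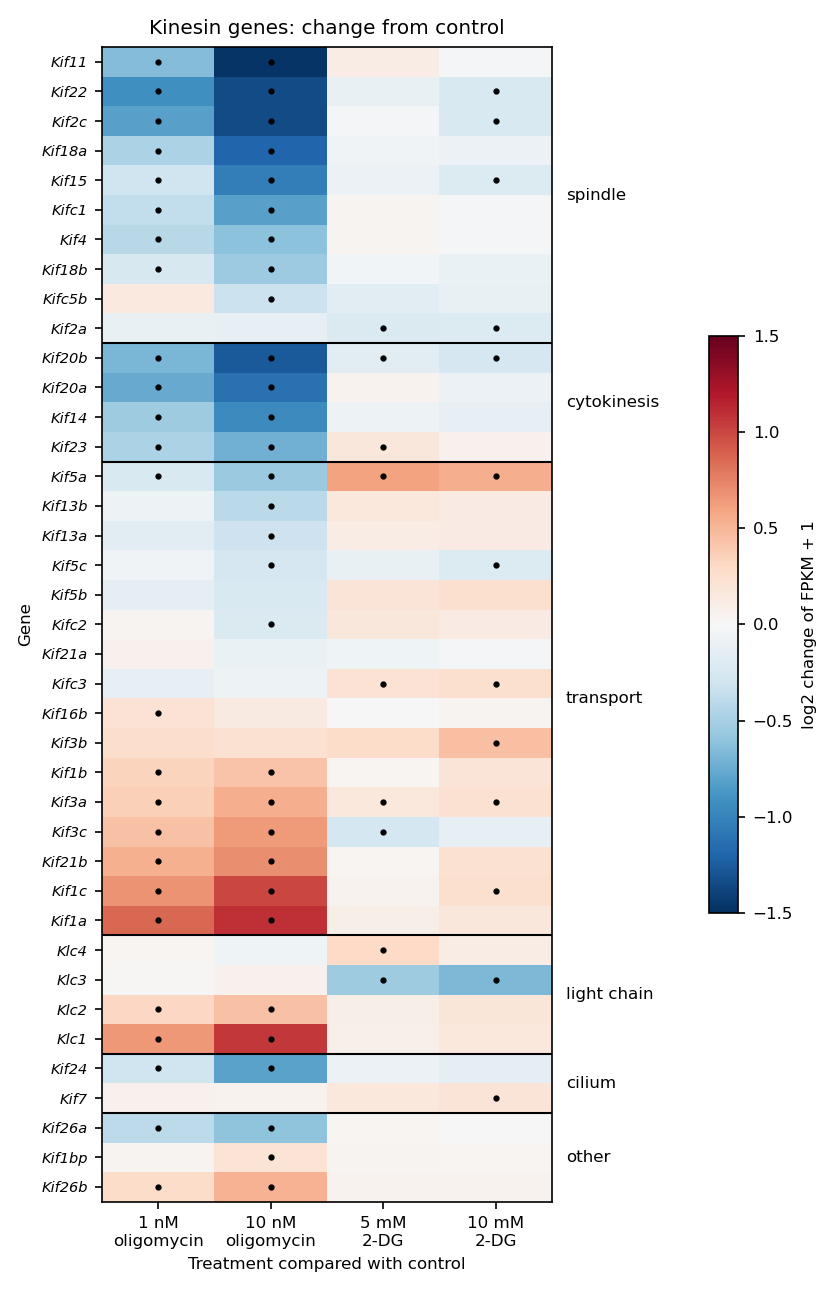
Log2 change of FPKM + 1 against control for the 39 described kinesin genes (rows, grouped by role and ordered by the change with 10 nM oligomycin) in the 4 treatments (columns). Blue is lower and red is higher than control, and a dot marks an adjusted p under 0.05; the mitotic rows are blue in both oligomycin columns except Kifc5b at 1 nM, which is pale red and carries no dot.

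Most promoters of the mitotic members held a short motif that no transport or light chain window held. The motif TTTGAA, the cell cycle genes homology region (CHR), is bound by regulatory complexes that time the transcription of late cell cycle genes, often beside a CCAAT box, the site of the factor NF-Y. Both were searched on either strand in RefSeq promoter windows of 300 bases (250 before and 50 after the annotated start, build GRCm38.p6), which were found for 35 of the 46 members. No matches of the 2 motifs shared a base in any of these windows. TTTGAA was present in 11 of 13 mitotic windows (84.6%), in 0 of 14 transport and light chain windows, in 2 of the 8 others, and in 17.9% of all 32851 windows. Within 40 bases of the start, a distance chosen after the positions were seen, it was present in 9 of 13 mitotic windows and in 3.96% of all windows. CCAAT was present in 8 of 13 mitotic windows, in 5 of 14 transport and light chain windows and in 37.4% of all. Of the 2 mitotic windows without TTTGAA, 1 was that of Kif2a, the mitotic gene that was not called at either oligomycin dose. The other was that of Kif18a, which was called lower at both. Of the 8 others, Kif26b held TTTGAA within 40 bases of the start and was called higher at both oligomycin doses. The windows of Kif24 and Kif26a held none, and these genes were called lower at both. A match is a string of letters and not a measured binding site.

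Stretches of 7 mitotic promoters with matches are given to show where the motifs lie, followed by those of the 3 transport and light chain genes with the largest rises. Each starts 100 bases before the RefSeq start, is written 5′ to 3′ on the strand of the gene, and has the matches in capitals. The CHR reads TTTGAA, and on the opposite strand it reads TTCAAA. The box reads CCAAT, and on the opposite strand it reads ATTGG.
Kif11 at chr19:37376282-37376381, plus strand: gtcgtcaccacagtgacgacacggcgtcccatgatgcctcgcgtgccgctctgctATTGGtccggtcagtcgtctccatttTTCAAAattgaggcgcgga
Kif22 at chr7:127042421-127042520, minus strand: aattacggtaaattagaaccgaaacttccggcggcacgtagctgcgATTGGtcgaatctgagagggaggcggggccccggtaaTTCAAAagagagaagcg
Kif15 at chr9:122950981-122951080, plus strand: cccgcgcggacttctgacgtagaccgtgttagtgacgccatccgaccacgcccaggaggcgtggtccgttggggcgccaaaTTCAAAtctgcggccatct
Kifc1 at chr17:33890627-33890733, minus strand: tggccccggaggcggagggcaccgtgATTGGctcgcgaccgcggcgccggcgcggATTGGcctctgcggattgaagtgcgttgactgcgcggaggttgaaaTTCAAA
Kif18b at chr11:102925116-102925224, minus strand: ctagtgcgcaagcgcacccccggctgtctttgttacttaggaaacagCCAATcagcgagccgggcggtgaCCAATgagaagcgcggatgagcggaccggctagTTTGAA
Kif23 at chr9:61946792-61946899, minus strand: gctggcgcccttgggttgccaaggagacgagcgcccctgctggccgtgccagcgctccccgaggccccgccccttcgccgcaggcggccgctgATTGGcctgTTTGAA
Kif20b at chr19:34922258-34922376, plus strand: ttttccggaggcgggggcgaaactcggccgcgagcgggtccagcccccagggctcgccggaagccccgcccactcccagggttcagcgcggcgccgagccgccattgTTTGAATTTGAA
Kif1c at chr11:70700448-70700547, plus strand: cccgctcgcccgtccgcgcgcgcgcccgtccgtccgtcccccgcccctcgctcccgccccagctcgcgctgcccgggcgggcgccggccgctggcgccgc
Klc1 at chr12:111758768-111758867, plus strand: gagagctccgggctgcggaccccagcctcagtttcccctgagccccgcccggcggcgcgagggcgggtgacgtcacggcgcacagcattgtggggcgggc
Kif1a at chr1:93101875-93101974, minus strand: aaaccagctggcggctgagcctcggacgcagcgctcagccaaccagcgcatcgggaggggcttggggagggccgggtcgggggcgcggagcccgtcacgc

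In Kif11, Kif22 and Kif15 the CHR lay less than 20 bases before the start, as TTCAAA on the strand of the gene, and Kif11 and Kif22 had an ATTGG further upstream. In Kifc1, Kif18b, Kif23 and Kif20b it lay at the start or just past it, and Kif20b had 2 copies side by side. The printed stretches of Kif1c, Klc1 and Kif1a held neither motif. The window of Kif2c began at a RefSeq start 3867 bases into the gene of the deposited table, that of Kif14 1505 bases, that of the cilium gene Kif27 4175 bases and that of the transport gene Kif17 11816 bases, so these 4 may not hold the promoter used. The RefSeq start of the light chain gene Klc4 lay at -936 bases from the start of its gene there, upstream of it. Its window may not hold the promoter used either.

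**Figure D3:**
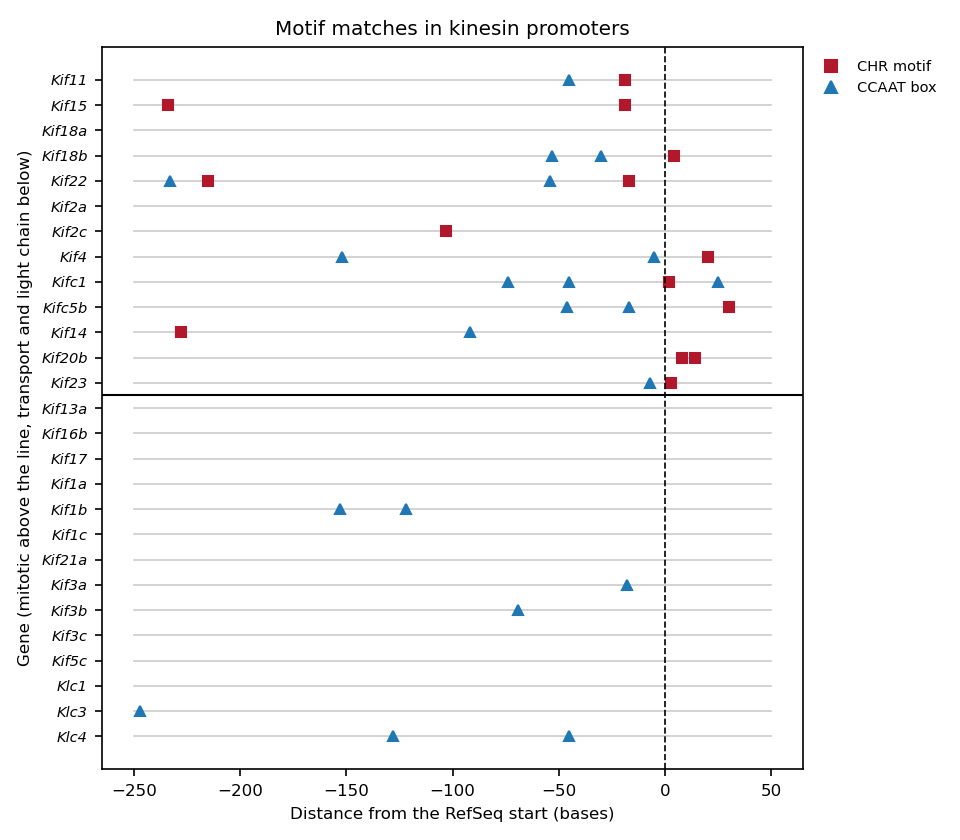
Positions of CHR matches (squares) and CCAAT boxes (triangles) relative to the RefSeq start in the promoter windows of 13 mitotic genes (above the line) and 14 transport and light chain genes (below it); grey lines span the searched window. Squares are found only above the line, in 11 of 13 windows, and 9 of these genes have one within 40 bases of the start.

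Among the spindle motors, Kif11 had the largest log2 change at 10 nM oligomycin, while Kif22 and Kif2c changed more at 1 nM. Kif11 (ENSMUSG00000012443, chromosome 19, 37376403 to 37421859) encodes the kinesin-5 motor that slides antiparallel microtubules apart and makes the spindle bipolar. Its level was 52.3, 49.6 and 45.4 FPKM in the controls, 31.04, 31.3 and 29.97 with 1 nM oligomycin, 17.6, 17.2 and 16.6 with 10 nM oligomycin, 50.9, 57.99 and 51.3 with 5 mM 2-DG and 45.97, 47.7 and 51.6 with 10 mM 2-DG. The change was -0.66 ± 0.06 (SE, adjusted p = 9.5e-07) at 1 nM and -1.47 ± 0.06 (SE, adjusted p = 9.5e-11) at 10 nM, a 2.87-fold lower mean FPKM at the higher dose, beside 2.88-fold for the less abundant Kif18a. The samples of control, 1 nM and 10 nM did not overlap, while both 2-DG groups overlapped the controls. Kif15, the kinesin-12 motor that can back up Kif11 in holding the spindle bipolar, changed by -0.30 ± 0.06 and -1.03 ± 0.06, both called.

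The 2 chromosome-arm and centromere motors next in size were Kif22 and Kif2c. Kif22 (chromosome 7, 127027729 to 127042471), a DNA-binding motor that pushes chromosome arms outward, stood at 28.6, 28.9 and 31.4 FPKM in the controls, 16.03, 14.3 and 15.2 with 1 nM oligomycin, 9.95, 11.6 and 11.7 with 10 nM oligomycin, 26.8, 27.7 and 27.8 with 5 mM 2-DG and 25.7, 24.1 and 25.4 with 10 mM 2-DG. It changed by -0.92 ± 0.06 (SE, adjusted p = 3e-08) and -1.35 ± 0.06 (SE, adjusted p = 1.7e-10), and its level was already lower in every 1 nM sample than in any control. Kif2c (chromosome 4, 117159639 to 117182639), which encodes a centromere protein that takes microtubule ends apart instead of walking, stood at 26.1, 26.2 and 25.6 FPKM in the controls, 14.9, 14.3 and 13.7 with 1 nM oligomycin, 8.94, 10.2 and 9.91 with 10 nM oligomycin, 24.2, 26.6 and 25.3 with 5 mM 2-DG and 22.4, 21.5 and 21.9 with 10 mM 2-DG. Its changes were -0.82 ± 0.05 (SE, adjusted p = 1.7e-08) and -1.34 ± 0.05 (SE, adjusted p = 3.5e-11). For both genes the 10 mM 2-DG samples also lay below all controls, by a far smaller amount.

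Kif18a (chromosome 2, 109280738 to 109341747), a kinesin-8 motor that dampens chromosome movements at metaphase, stood at 6.44, 5.91 and 5.73 FPKM in the controls, 3.97, 4.297 and 3.85 with 1 nM oligomycin, 1.83, 2.02 and 2.43 with 10 nM oligomycin, 5.99, 6.01 and 5.40 with 5 mM 2-DG and 5.31, 5.46 and 6.06 with 10 mM 2-DG. Most of its change came at the higher dose, with -0.48 ± 0.08 (SE, adjusted p = 8.1e-05) at 1 nM and -1.19 ± 0.08 (SE, adjusted p = 3.9e-09) at 10 nM. Kif18b, which trims the astral microtubules around the poles, changed by -0.24 ± 0.05 and -0.55 ± 0.05, Kif4, a chromosome motor that also works in the midzone, by -0.41 ± 0.07 and -0.61 ± 0.07, and Kifc1, a minus-end motor that focuses the spindle poles, by -0.37 ± 0.06 and -0.81 ± 0.06. All these changes were called. Kifc5b, a near copy of Kifc1, stood at 17.7, 17.1 and 17.2 FPKM in the controls, at 20.02, 18.2 and 19.6 with 1 nM oligomycin and at 12.97, 14.4 and 13.8 with 10 nM, so its 1 nM samples all lay above the controls although the gene was not called (adjusted p = 0.052). Kifc1 and Kifc5b share 17% and 16.6% of their stretches of 100 bases, and reads may have been split between them by the counting, which makes the levels of both uncertain.

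Kif2a was the exception among the mitotic genes. Kif2a (chromosome 13, 106958996 to 107022126), a relative of Kif2c that shortens microtubules at the poles and also works in cells that do not divide, stood at 18.3, 17.8 and 16.6 FPKM in the controls, 16.5, 16.2 and 15.7 with 1 nM oligomycin, 16.4, 16.5 and 15.1 with 10 nM oligomycin, 14.9, 15.8 and 14.3 with 5 mM 2-DG and 14.1, 14.99 and 16.2 with 10 mM 2-DG. It was not called with oligomycin (-0.12 ± 0.06, adjusted p = 0.1 and -0.13 ± 0.06, adjusted p = 0.061), although all 6 oligomycin samples lay below the lowest control of 16.6 FPKM. With 2-DG it was called lower (-0.21 ± 0.06, adjusted p = 0.011 and -0.21 ± 0.06, adjusted p = 0.0096), and the 5 mM call was lost under 1 of 15 alternative settings, leaving out 5 mM replicate 3 (adjusted p up to 0.052). The intervals of its oligomycin changes were -0.24 to 0.01 and -0.25 to -0.00, so a fall the size of that of Kif2c lies outside them. Exons of Kif2a overlap those of Dimt1 on the opposite strand over 19.2% of their length, and Dimt1 stood at 9.17, 6.09, 5.36, 7.81 and 7.34 FPKM in the same order of groups.

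All 4 cytokinesis genes were called lower at both oligomycin doses, where 33.2% and 41.7% of all tested genes were. Kif20a (chromosome 18, 34624624 to 34633265), which moves the Aurora B kinase complex to the midzone, stood at 44.3, 43.8 and 43.7 FPKM in the controls, 24.9, 26.2 and 25.7 with 1 nM oligomycin, 20.3, 19.7 and 19.1 with 10 nM oligomycin, 41.3, 50.3 and 45.5 with 5 mM 2-DG and 38.5, 42.5 and 42.8 with 10 mM 2-DG. Its changes were -0.76 ± 0.06 (SE, adjusted p = 2.2e-07) and -1.12 ± 0.06 (SE, adjusted p = 1.2e-09), with no overlap between the 3 groups of that series. Kif20a shares 29.3% of its exon length with Cdc23 on the other strand, which fell from 14.1 FPKM in the controls to 12.1 and 10.4. Kif20b (chromosome 19, 34922361 to 34975745), needed late in cytokinesis, stood at 24.9, 23.8 and 21.8 FPKM in the controls, 13.5, 14.8 and 14.5 with 1 nM oligomycin, 9.32, 9.69 and 8.65 with 10 nM oligomycin, 20.1, 21.99 and 20.01 with 5 mM 2-DG and 18.4, 19.97 and 20.4 with 10 mM 2-DG. It changed by -0.68 ± 0.06 (SE, adjusted p = 6.4e-07) and -1.26 ± 0.06 (SE, adjusted p = 4e-10), and it was the only cytokinesis gene also called lower at both 2-DG doses, by -0.17 ± 0.06 (SE, adjusted p = 0.048) and -0.25 ± 0.06 (SE, adjusted p = 0.0052). The 5 mM call of Kif20b was lost under 9 of 15 alternative settings, among them leaving out control replicate 1 or 2 or 5 mM replicate 1 or 3 (adjusted p up to 0.17).

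Kif23 (chromosome 9, 61915905 to 61946774), the motor of the centralspindlin complex, stood at 14.03, 12.98 and 12.02 FPKM in the controls, 8.93, 8.94 and 9.25 with 1 nM oligomycin, 7.47, 7.496 and 7.43 with 10 nM oligomycin, 14.6, 15.2 and 14.5 with 5 mM 2-DG and 13.8, 13.8 and 13.4 with 10 mM 2-DG. It changed by -0.48 ± 0.05 (SE, adjusted p = 1.8e-06) and -0.72 ± 0.05 (SE, adjusted p = 9.6e-09), the smallest fall of the 4 at 10 nM, and was called higher with 5 mM 2-DG (0.17 ± 0.05, adjusted p = 0.016), where all 3 samples lay above the controls. That call was lost under 3 of 15 alternative settings, among them leaving out control replicate 3 or 5 mM replicate 2 (adjusted p up to 0.072). Kif14, a midbody motor, changed by -0.53 ± 0.07 (SE, adjusted p = 1.8e-05) and -0.96 ± 0.07 (SE, adjusted p = 2e-08).

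**Figure D4:**
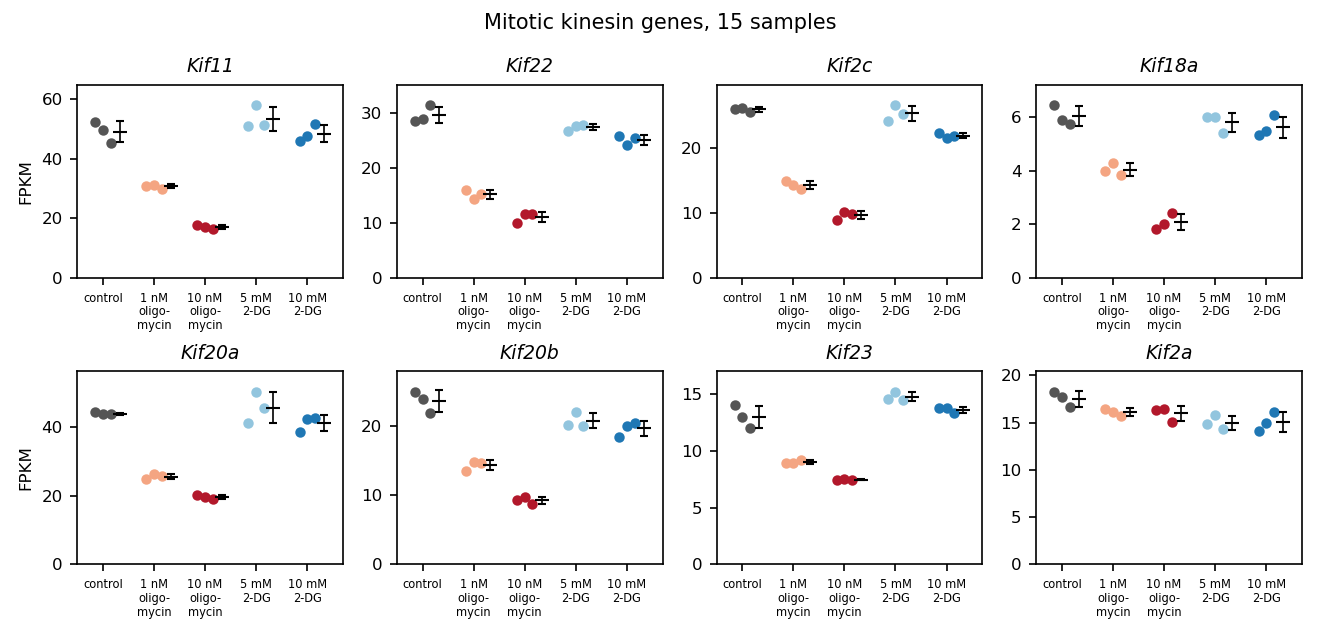
FPKM of 8 mitotic kinesin genes in the 15 samples (coloured points, grouped by treatment), with group means and standard deviations as black bars (n = 3); each vertical axis starts at 0. The first 7 genes step down from control to 1 nM to 10 nM oligomycin, while Kif2a stays between 14.1 and 18.3 FPKM in all samples.

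The dose step was tested directly. Between 1 nM and 10 nM oligomycin, 13 of 14 mitotic genes were called lower and 0 higher, with a median of -0.43, and over all tested genes 27.6% were called lower and 18.7% higher. The largest mitotic steps in log2(FPKM + 1) were those of Kif11 (-0.81 ± 0.06, adjusted p = 4.7e-07), Kif15 (-0.73 ± 0.06, adjusted p = 6.1e-07) and Kif18a (-0.71 ± 0.08, adjusted p = 6.1e-06). In mean FPKM the order was reversed, with 1.80-fold for Kif11, 1.84-fold for Kif15 and 1.93-fold for Kif18a. The step of Kif2a was not called (-0.01 ± 0.06, adjusted p = 0.88). Of the mitotic genes, 7 were at least 1 lower on the log2 scale at 10 nM than in the controls, where 9.03% of all genes were called lower by that much. These 7 were Kif11, Kif22, Kif2c, Kif20b, Kif18a, Kif20a and Kif15. At 1 nM, 0 reached that size, against 1.69% of all genes. Adding 1 to the FPKM makes the log2 changes of low genes come out too small. Kif14 was at -0.96 at 10 nM, with a 2.36-fold lower mean FPKM than in the controls. The fold was 2.23 for Kif20a and 2.34 for Kif15.

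Most listed partners of the mitotic motors were also called lower with oligomycin. Of 36 spindle partners and mitotic regulators on a list, 31 were called lower and 0 higher at 1 nM oligomycin, and all 36 lower at 10 nM, with medians of -0.63 and -1.04. Plk1, the kinase that drives mitotic entry, changed by -1.18 ± 0.06 and -1.42 ± 0.06, and the cyclin gene Ccnb1 by -0.92 ± 0.04 and -1.56 ± 0.04. Cenpe, a kinetochore kinesin whose symbol does not begin with Kif, went from 17.4 ± 1.72 FPKM in the controls to 12.9 ± 0.642 and 10.9 ± 0.992. Of the 13 tubulin genes tested, 10 were called lower and 3 higher at 1 nM, where 33.2% and 29.8% of all tested genes were, and 7 and 3 at 10 nM, where 41.7% and 34% were. In these samples stem cell markers were lower and fibroblast markers higher, as given above, and their part in the mitotic falls was not tested.

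Among the transport motors, the kinesin-3 genes Kif1a and Kif1c rose most with oligomycin. Kif1a (ENSMUSG00000014602, chromosome 1, 93015464 to 93101951), which carries synaptic vesicle precursors in neurons, stood at 7.41, 7.41 and 6.41 FPKM in the controls, 11.9, 14.4 and 14.8 with 1 nM oligomycin, 19.9, 13.8 and 15.6 with 10 nM oligomycin, 7.31, 7.63 and 7.77 with 5 mM 2-DG and 8.43, 8.19 and 7.67 with 10 mM 2-DG. It changed by 0.86 ± 0.11 (SE, adjusted p = 1e-05) and 1.10 ± 0.11 (SE, adjusted p = 4e-07), and its 10 nM value without replicate 1, which was high at 19.9 FPKM, was 0.96. The 2 oligomycin groups overlapped each other and lay above all other samples. Of the 5 neuron markers tested, 1 was called higher and 4 lower at either dose, and Rbfox3, Snap25 and Syp were under 1 FPKM in every group. Over all tested genes, 29.8% and 34% were called higher at these doses and 33.2% and 41.7% lower.

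Kif1c (chromosome 11, 70700548 to 70731964), a vesicle motor found in many tissues, stood at 18.3, 18.7 and 18.4 FPKM in the controls, 30.04, 29.5 and 30.6 with 1 nM oligomycin, 40.7, 35.9 and 37.7 with 10 nM oligomycin, 19.7, 17.9 and 19.9 with 5 mM 2-DG and 23.2, 21.6 and 21.02 with 10 mM 2-DG. Its changes were 0.68 ± 0.06 (SE, adjusted p = 1.8e-07) and 1.01 ± 0.06 (SE, adjusted p = 8.9e-10), and with 10 nM its mean of 38.1 ± 2.41 FPKM was the highest of the family, ahead of Klc1 at 35.6 ± 2.86, whose samples overlapped it. It was also called higher with 10 mM 2-DG (0.24 ± 0.06, adjusted p = 0.003), where every sample lay above the controls. Kif1b, which carries mitochondria and vesicles, rose less, by 0.33 ± 0.10 and 0.43 ± 0.10, and its 1 nM call was lost under 2 of 15 alternative settings, all of them leaving out control replicate 3 or 1 nM replicate 3 (adjusted p up to 0.061). Kif1bp, whose product is no motor but binds several kinesins and keeps them off microtubules, was called higher at 10 nM only (0.20 ± 0.06, adjusted p = 0.01). This call was lost under 2 of 15 alternative settings, among them leaving out 10 nM replicate 2 (adjusted p up to 0.059).

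The light chains split by gene and by inhibitor. Klc1 (ENSMUSG00000021288, chromosome 12, 111758849 to 111807844), which links kinesin-1 to cargo, stood at 15.9, 17.04 and 16.9 FPKM in the controls, 27.6, 25.8 and 26.2 with 1 nM oligomycin, 32.4, 37.9 and 36.5 with 10 nM oligomycin, 17.9, 17.2 and 17.7 with 5 mM 2-DG and 19.5, 19.8 and 16.9 with 10 mM 2-DG. It changed by 0.65 ± 0.07 (SE, adjusted p = 1.6e-06) and 1.05 ± 0.07 (SE, adjusted p = 3.5e-09), and it stepped up between the doses too (0.41 ± 0.07, adjusted p = 0.00021), with no overlap between the 3 groups. Klc2 rose by 0.31 ± 0.08 and 0.44 ± 0.08. Klc4 was called higher with 5 mM 2-DG alone (0.30 ± 0.10, adjusted p = 0.04). That call was lost under 6 of 15 alternative settings, among them leaving out control replicate 1 or 3 or 5 mM replicate 1 or 3 (adjusted p up to 0.16).

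Klc3 (chromosome 7, 19394437 to 19404104) fell with 2-DG and was not called with oligomycin. It stood at 3.26, 3.76 and 3.49 FPKM in the controls, 4.002, 3.897 and 2.88 with 1 nM oligomycin, 3.36, 4.18 and 3.55 with 10 nM oligomycin, 2.06, 1.98 and 2.32 with 5 mM 2-DG and 2.25, 1.61 and 1.66 with 10 mM 2-DG. All 6 samples with 2-DG lay below all 9 others. The change was -0.53 ± 0.11 (SE, adjusted p = 0.0019) at 5 mM and -0.67 ± 0.11 (SE, adjusted p = 0.00019) at 10 mM, while with oligomycin it was 0.02 ± 0.11, adjusted p = 0.88 and 0.06 ± 0.11, adjusted p = 0.64, with intervals of -0.21 to 0.26 and -0.18 to 0.29. The difference between 10 mM 2-DG and 10 nM oligomycin was -0.73 ± 0.11 (SE, adjusted p = 3.4e-05). Klc3 was a low gene, with 80 to 206 reads per sample, and shares 28.1% of its exon length with Ercc2 on the other strand, which stood at 2.64 FPKM in the controls, 1.90 and 1.70 with oligomycin and 2.51 and 2.34 with 2-DG. Macrophage markers were also lower with 2-DG, as given above, and their part in the falls of Klc3 and other kinesin genes with 2-DG was not tested.

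The kinesin-1 heavy chains did not follow Klc1. Kif5b, the heavy chain found in most tissues, stood at 45.02, 39.4 and 35.3 FPKM in the controls, 37.7, 35.9 and 35.1 with 1 nM oligomycin, 41.4, 28.8 and 32.5 with 10 nM oligomycin, 47.6, 42.6 and 46.7 with 5 mM 2-DG and 45.6, 46.3 and 49.3 with 10 mM 2-DG. It was called in no comparison with control, with a wide spread between replicates of a group, and its interval at 10 nM was -0.46 to 0.01. Kif5c, a heavy chain abundant in neurons, stood at 5.77, 5.17 and 4.99 FPKM in the controls, 5.04, 5.17 and 4.95 with 1 nM oligomycin, 5.04, 3.88 and 4.04 with 10 nM oligomycin, 4.605, 4.91 and 5.02 with 5 mM 2-DG and 4.24, 4.26 and 4.88 with 10 mM 2-DG. It was called lower at 10 nM oligomycin (-0.25 ± 0.08, adjusted p = 0.01) and at 10 mM 2-DG (-0.21 ± 0.08, adjusted p = 0.042). The oligomycin call was lost under 4 of 15 alternative settings, among them leaving out control replicate 1 or 10 nM replicate 2 (adjusted p up to 0.08), and the 2-DG call was lost under 8 of 15 alternative settings, among them leaving out control replicate 1 or 2 or 10 mM replicate 1 or 2 (adjusted p up to 0.16).

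Kif5a moved in opposite directions with the 2 inhibitors. Kif5a (ENSMUSG00000074657, chromosome 10, 127225696 to 127263348), the third heavy chain and the one most tied to neurons, stood at 1.95, 2.17 and 1.62 FPKM in the controls, 1.61, 1.33 and 1.51 with 1 nM oligomycin, 0.9098, 1.08 and 0.947 with 10 nM oligomycin, 3.46, 3.23 and 3.55 with 5 mM 2-DG and 3.52, 3.14 and 3.07 with 10 mM 2-DG. The 6 samples with 2-DG all lay above the controls, and the 6 with oligomycin all lay below the lowest control of 1.62 FPKM. The changes were 0.60 ± 0.08 (SE, adjusted p = 5.1e-05) and 0.54 ± 0.08 (SE, adjusted p = 6.6e-05) with 2-DG, and -0.23 ± 0.08 (SE, adjusted p = 0.019) and -0.56 ± 0.08 (SE, adjusted p = 1.5e-05) with oligomycin. The 1 nM call was lost under 4 of 15 alternative settings, among them leaving out control replicate 1 or 2 or 1 nM replicate 2 (adjusted p up to 0.097). The difference between 10 mM 2-DG and 10 nM oligomycin was 1.10 ± 0.08 (SE, adjusted p = 1.7e-08). Kif5a had 118 to 465 reads per sample. The 10 neuron markers summed to 51.6 to 55.9 FPKM in the controls, 34.7 to 37.95 and 20.46 to 24.6 with the oligomycin doses, and 58.05 to 61.6 and 49.8 to 53.97 with the 2-DG doses. In the controls Stmn2 and Nefl gave 31.5 and 15.4 FPKM of a mean sum of 53.8, and 5 of the 10 markers stayed under 1 FPKM in every sample. Of the 5 tested, 4 were called lower and 1 higher at either oligomycin dose, where 33.2% and 41.7% of all tested genes were called lower and 29.8% and 34% higher. At 5 mM 2-DG 1 was called lower and 2 higher, where 20.3% and 15% of all genes were. At 10 mM 2 were called lower and 1 higher, where 26.8% and 21.4% were. The part of neuron markers in the changes of Kif5a was not tested.

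The kinesin-2 genes, which build cilia and carry vesicles, also separated. Kif3a (chromosome 11, 53567379 to 53601967), the common subunit, stood at 6.997, 6.89 and 6.43 FPKM in the controls, 8.97, 8.97 and 8.99 with 1 nM oligomycin, 10.7, 10.3 and 9.88 with 10 nM oligomycin, 7.68, 7.81 and 7.49 with 5 mM 2-DG and 8.05, 7.55 and 8.65 with 10 mM 2-DG. It was called higher in all 4 comparisons with control, by 0.36 ± 0.05, 0.54 ± 0.05, 0.16 ± 0.05 and 0.22 ± 0.05, and no treated sample overlapped the controls. The 5 mM call was lost under 5 of 15 alternative settings, all of them leaving out control replicate 2 or 3 or 5 mM replicate 1, 2 or 3 (adjusted p up to 0.12). Its partner Kif3b (chromosome 2, 153291413 to 153333390) stood at 7.45, 7.46 and 6.64 FPKM in the controls, 8.68, 8.92 and 8.802 with 1 nM oligomycin, 11.5, 7.76 and 7.08 with 10 nM oligomycin, 8.59, 9.53 and 8.64 with 5 mM 2-DG and 10.6, 10.4 and 9.63 with 10 mM 2-DG. It was called with 10 mM 2-DG only (0.45 ± 0.12, adjusted p = 0.0061), and replicate 1 of 10 nM oligomycin stood far above the other 2 replicates.

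Kif3c (chromosome 12, 3365132 to 3406494), a partner that replaces Kif3b in some cells, stood at 2.69, 2.41 and 2.33 FPKM in the controls, 3.52, 3.77 and 3.85 with 1 nM oligomycin, 4.88, 4.17 and 4.21 with 10 nM oligomycin, 1.63, 2.03 and 2.03 with 5 mM 2-DG and 2.25, 2.03 and 2.32 with 10 mM 2-DG. It rose with oligomycin (0.44 ± 0.08, adjusted p = 0.00017 and 0.64 ± 0.08, adjusted p = 2.6e-06) and fell with 5 mM 2-DG (-0.26 ± 0.08, adjusted p = 0.014), where all 3 samples lay below the controls. The 5 mM call was lost under 3 of 15 alternative settings, among them leaving out control replicate 1 or 5 mM replicate 1 (adjusted p up to 0.072). Kif3c shares 35.3% of its exon length with 1110002L01Rik on the other strand. That gene stood at 1.81 FPKM in the controls, 1.39 and 1.40 with oligomycin and 1.38 and 1.31 with 2-DG. Its part in the values of Kif3c was not tested. Kifap3, which links the Kif3 motor to cargo, stood at 19.1 ± 0.885 FPKM in the controls and was called at 1 nM only (0.15 ± 0.06, adjusted p = 0.04).

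Among the remaining transport motors, Kif21b was called higher with oligomycin. Kif21b (chromosome 1, 136131389 to 136177998), a motor that restrains microtubule growth in neurons and immune cells, stood at 3.09, 3.14 and 2.93 FPKM in the controls, 4.26, 5.11 and 5.29 with 1 nM oligomycin, 6.68, 5.11 and 5.06 with 10 nM oligomycin, 3.096, 2.81 and 3.51 with 5 mM 2-DG and 3.91, 3.77 and 3.56 with 10 mM 2-DG. Its changes were 0.53 ± 0.10 (SE, adjusted p = 0.00024) and 0.70 ± 0.10 (SE, adjusted p = 1.2e-05), with every oligomycin sample above all others, while its relative Kif21a was called in no comparison with control. The endosome and membrane motors Kif13a and Kif13b were called lower at 10 nM (-0.31 ± 0.08 and -0.40 ± 0.09), and the endosome motor Kif16b higher at 1 nM (0.21 ± 0.08, adjusted p = 0.035). The call of Kif16b was lost under 7 of 15 alternative settings, among them leaving out control replicate 2 or 3 or 1 nM replicate 2 or 3 (adjusted p up to 0.16). The minus-end motor Kifc3 (chromosome 8, 95099828 to 95202812) stood at 2.55, 2.64 and 3.02 FPKM in the controls, 2.297, 2.39 and 2.60 with 1 nM oligomycin, 2.797, 2.29 and 2.55 with 10 nM oligomycin, 3.57, 3.396 and 3.06 with 5 mM 2-DG and 3.802, 3.44 and 3.04 with 10 mM 2-DG. It was called higher at both 2-DG doses (0.22 ± 0.08, adjusted p = 0.049 and 0.24 ± 0.08, adjusted p = 0.022). The 5 mM call was lost under 7 of 15 alternative settings, among them leaving out control replicate 1 or 2 or 5 mM replicate 1 or 2 (adjusted p up to 0.16), and the 10 mM call was lost under 4 of 15 alternative settings, all of them leaving out control replicate 1 or 2 or 10 mM replicate 1 or 2 (adjusted p up to 0.1). Kifc2 was called lower at 10 nM oligomycin (-0.22 ± 0.09, adjusted p = 0.042). This call was lost under 10 of 15 alternative settings, among them leaving out control replicate 1, 2 or 3 or 10 nM replicate 2 or 3 (adjusted p up to 0.13).

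**Figure D5:**
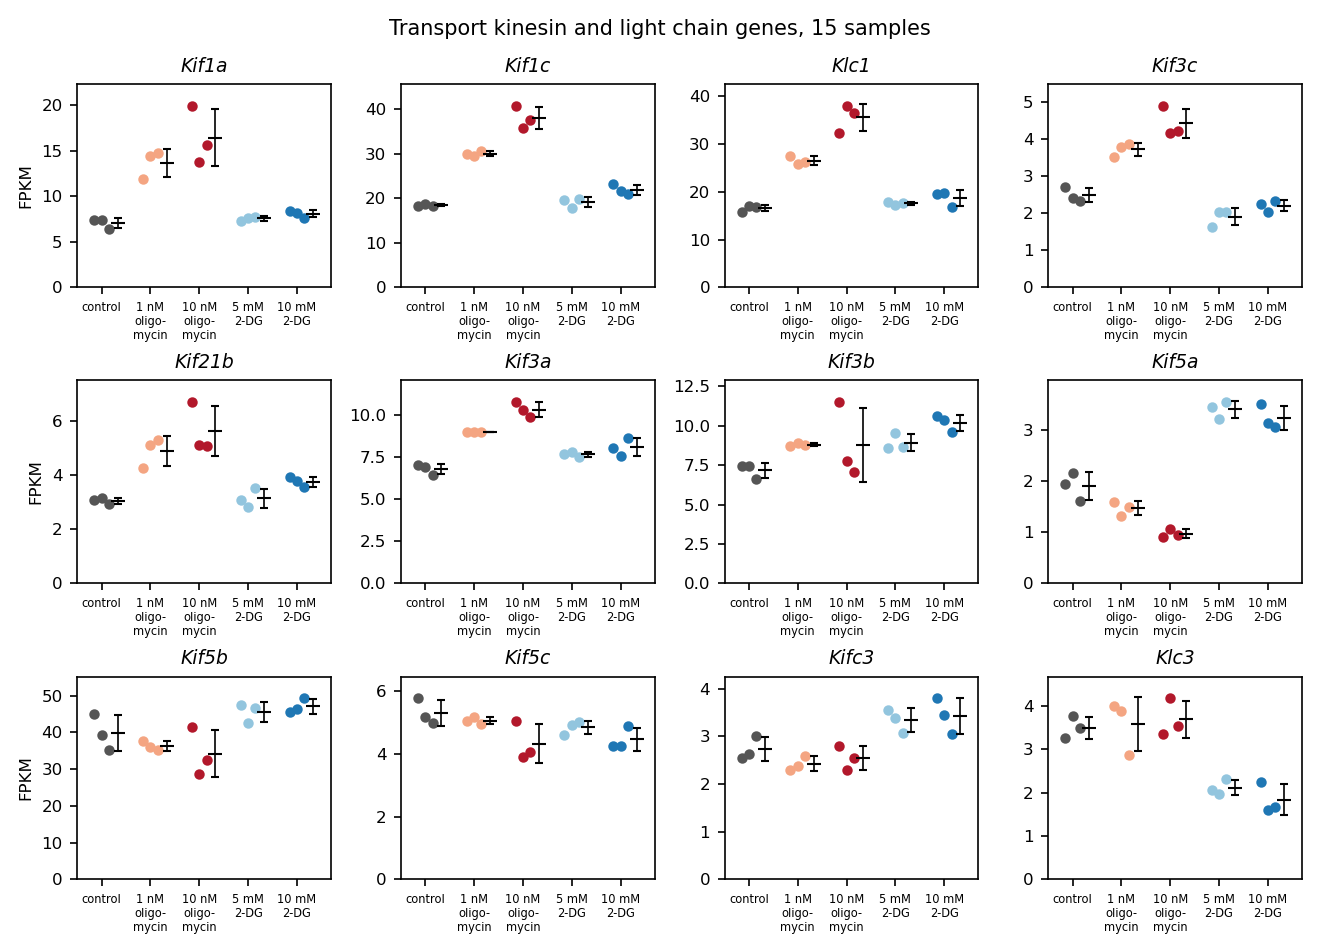
FPKM of 12 transport and light chain genes in the 15 samples (coloured points, grouped by treatment), with group means and standard deviations as black bars (n = 3); each vertical axis starts at 0. Kif1a, Kif1c, Klc1, Kif3c, Kif21b and Kif3a stand higher with oligomycin, Kif5a stands higher with 2-DG and lower with oligomycin, and Klc3 stands lower with 2-DG.

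Transport partners moved in both directions. Of 36 tested genes for dynein, dynactin and cargo adaptors, 15 were called higher and 7 lower at 1 nM oligomycin, where 29.8% and 33.2% of all tested genes were, and 16 and 11 at 10 nM, where 34% and 41.7% were. Their median changes were 0.10 and 0.13, against -0.03 and -0.08 over all tested genes. Arl8a, the small GTPase that couples lysosomes to kinesin, rose by 0.81 ± 0.06 and 1.09 ± 0.06, and the dynein light chain gene Dynlt3 by 1.02 ± 0.08 and 1.40 ± 0.08. Hook1, a dynein adaptor, changed by -0.57 ± 0.07 and -1.56 ± 0.07. The rises of fibroblast and macrophage markers in the same samples are given above, and their part in the rises of Kif1a, Kif1c, Kif21b, Kif3a, Kif3c, Klc1 and Klc2 was not tested.

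Of the 6 members tied to cilia, 2 were expressed. Kif24, which holds back cilium formation in cycling cells, went from 2.08 ± 0.1604 FPKM in the controls to 1.499 ± 0.116 and 0.7701 ± 0.0696 with oligomycin, changes of -0.30 ± 0.07 (SE, adjusted p = 0.0018) and -0.80 ± 0.07 (SE, adjusted p = 1.1e-07). Kif7, a regulator of Hedgehog signalling at the tip of the cilium, was called with 10 mM 2-DG only (0.19 ± 0.07, adjusted p = 0.032). The call of Kif7 was lost under 5 of 15 alternative settings, among them leaving out control replicate 2 or 3 or 10 mM replicate 1 or 2 (adjusted p up to 0.13). Of the 20 intraflagellar transport genes, 4 were called higher and 5 lower at 1 nM oligomycin, where 29.8% and 33.2% of all tested genes were, and 8 and 5 at 10 nM, where 34% and 41.7% were. The motors Kif26a and Kif26b, which lack ATPase activity, went in opposite directions, with -0.39 ± 0.08 and -0.60 ± 0.08 for Kif26a and 0.28 ± 0.11 and 0.53 ± 0.11 for Kif26b. The 1 nM call of Kif26b was lost under 7 of 15 alternative settings, among them leaving out control replicate 1, 2 or 3 or 1 nM replicate 2 or 3 (adjusted p up to 0.15).

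With 2-DG fewer kinesin genes passed the test than with oligomycin. At 5 mM, 5 of 39 were called higher and 4 lower, where 15% and 20.3% of all tested genes were called, and at 10 mM 6 were called higher and 7 lower, where 21.4% and 26.8% were. Leaving out any 1 of the 6 libraries took the 5 higher calls at 5 mM to 2 or 3, and the 4 lower calls went to 2 without control replicate 1 or 5 mM replicate 1. The mitotic median was -0.04 at 5 mM and -0.11 at 10 mM, against -0.02 and -0.03 over all genes. At 10 mM, 5 mitotic genes were called lower and 0 higher, with Kif20b at -0.25 ± 0.06 (SE, adjusted p = 0.0052), Kif2c at -0.23 ± 0.05 (SE, adjusted p = 0.0023), Kif22 at -0.23 ± 0.06 (SE, adjusted p = 0.0076), and Kif15 and Kif2a at -0.21 ± 0.06 and -0.21 ± 0.06. The call of Kif15 was lost under 2 of 15 alternative settings, all of them leaving out control replicate 1 or 10 mM replicate 2 (adjusted p up to 0.054). Among the spindle partners 22 of 36 were called lower and 4 higher at that dose, led by the kinetochore gene Spc25 at -0.74 ± 0.09. The step from 5 mM to 10 mM was called for 1 kinesin gene, Kif2c (-0.20 ± 0.05, adjusted p = 0.04), lower at the higher dose, where 2.45% of all genes were called lower and 3.41% higher. That call was lost when any 1 of the 6 libraries was left out.

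The higher doses of the 2 inhibitors were also set against each other. Between 10 mM 2-DG and 10 nM oligomycin, 21 of 39 kinesin genes were called higher with 2-DG and 10 lower, where 37.7% and 33.2% of all tested genes were called. Of the 14 mitotic genes 13 were called higher with 2-DG, with a median of 0.83, and Kif2a was not called (-0.08 ± 0.06, adjusted p = 0.23). Kif11 differed most (1.44 ± 0.06, adjusted p = 1.5e-10). Of the 20 transport and light chain genes, 6 were called higher with 2-DG and 8 lower, with Kif5a at 1.10 ± 0.08 at one end and Kif1a at -0.92 ± 0.11 at the other. These doses were set by the study for separate pathways, and the labels give no measure of how far each pathway was blocked.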

How the data were processed

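Total RNA of 15 samples was sequenced, and the authors deposited FPKM values, 1 per gene and sample, in a table of 32152 genes (1 further line named no gene and was dropped). Per the submitters' processing notes the tools were Bowtie2 2.2.3, HISAT2 2.1.0 and HTSeq 0.6.0, with the build GRCm38 and no role for each, and whether the counting used strand is not given in the sources used here. Gene positions are those of the table (GRCm38, counted from 1), and 41 of the 46 members had the same start and end in GENCODE M21. Exon overlaps and shared stretches of 100 bases were computed from that annotation.

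The value steps of low genes put the depth at 17.4 to 19.2 M reads (M, mega), since 95.4% to 96.0% of the values worth up to 20 reads came out whole within 0.05. The 13284 genes that reached 1 FPKM in 3 or more samples were tested as log2(FPKM + 1), a scale on which the changes of low genes come out too small. A linear model with 1 mean per group over all 15 samples was fitted with limma 3.58.1 in R 4.3.3 (eBayes with a trend), with two-sided tests and Benjamini-Hochberg adjustment over all tested genes at a threshold of 0.05, in 7 comparisons. Errors of log2 changes are standard errors, intervals are 95% intervals of the model, and errors of FPKM are standard deviations over 3 samples. The scripts were tested on simulated data. Python 3.11.15, numpy 2.4.6, pandas 2.3.3 and matplotlib 3.10.9 were used for the rest.

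The members, the role groups and the lists of partners and markers were chosen with earlier results of these data known. Values of every sample are given for members past the threshold whose treated samples all lay outside the control range and that were among the 5 largest rises or falls of the family in a comparison with control. Kif5b, and values of Kifc5b, were added after their values were seen. From each list, up to 4 members with the largest changes were eligible to be named, and Cenpe and Kifap3 whatever their values. Outside this rule, the markers Itgam, Ptprc, Rbfox3, Snap25 and Syp were named because they were under 1 FPKM in every group. The alternatives were other pseudocounts (0.1 and 5), no filter, median ratio scaling, quantile normalization, removal of the trend with transcript length, fits of the compared groups alone, the replicate number as a block, and leaving out each replicate.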

Additional observations from a re-analysis of the deposited data

Results flagged for a closer look

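Kif5a differed between the inhibitors in direction. The difference of its log2 value between 10 mM 2-DG and 10 nM oligomycin was 1.10 (limma, adjusted p = 1.7e-08), made of a change from control of 0.54 with 2-DG and of -0.56 with oligomycin, and all 3 samples moved the same way within each group. All groups had 3 samples, so no group was large enough for the check of single samples that stand apart from their group.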

How the results depend on the processing

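Of the 77 calls of kinesin genes against control, 59 held under all 15 alternatives, 21 of 25 with 1 nM oligomycin, 27 of 30 with 10 nM, 2 of 9 with 5 mM 2-DG and 9 of 13 with 10 mM, and 0 changed direction. The counts of calls against control with both oligomycin doses and with 10 mM 2-DG stayed within 1.5 times. With 5 mM 2-DG the 5 higher calls became 3 without the filter, 3 with the replicate block and 2 to 3 with a replicate left out, and the 4 lower calls became 2 to 4 with a replicate left out. Between 10 nM and 1 nM oligomycin the 5 higher calls became 3 without the filter, 3 in a fit of the groups compared, 9 with the length trend removed, 8 with the replicate block and the length trend removed, and 3 to 6 with a replicate left out. Between 10 mM and 5 mM 2-DG the 0 higher calls became 1 with the length trend removed and 1 with the replicate block and the length trend removed. The 1 lower call became 0 without the filter, 0 with the replicate block and 0 to 0 with a replicate left out. The causes of these moves were not tested. Deviations from the group means correlated above 0.1 in 3 of 30 pairs of samples with the same number and in 9 of 60 with different numbers. The highest correlations were 0.37 and 0.25. With 3 samples per group this cannot show whether a number marks a shared culture. With the replicate block, 15 kinesin genes were called lower with 1 nM oligomycin and 21 with 10 nM, where 15 and 20 were without it. Without replicate 1 of 10 nM oligomycin the median change of the mitotic genes at that dose was -1.05, and 13 of them were called lower. Depth limits the low members most, since Klc3, Kif26a, Kif24 and Kif5a had as few as 80, 98, 103 and 118 reads in a sample.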
